A study of Mus musculus with 30 samples.

Results

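Members of mitochondrial protein quality control and mitochondrial stress signalling, 9 genes in all, were followed across 8 compounds in mouse tail fibroblasts: the coiled-coil-helix proteins Chchd10 and Chchd2, the matrix chaperones Hspd1, Hspe1 and Hspa9, the matrix proteases Lonp1 and Clpp, and the secreted factors Gdf15 and Fgf21. The members were picked by symbol, through the GENCODE M21 gene identifiers, and all 9 were found among the 29861 genes of the table. They were chosen with earlier results of these data known, so their counts beside those of all genes are descriptions. Chchd10 was included because its level rose under Antimycin A and Clofilium tosylate, so those values describe the choice and carry no test. The cells were the primary tail fibroblast line CCG-HTA-1 from UMHet3 mice, a genetically mixed stock, used at passage 4. They grew in ambient oxygen in high-glucose medium that lacked pyruvate, and were collected 48 hours after the compound was added. The compound groups were Antimycin A, Dihydrorotenone, Diphenyleneiodonium Cl, Cardamonin, BerberineA, Clofilium tosylate, AEG 3482 and Podofilox, with 3 libraries each, and the solvent DMSO served as control with 6 libraries. All 30 libraries came from this 1 line, the labels name no genetic change, and doses are not given in the sources used here. The donor mice were 5 to 8 weeks old per the labels, and 8 to 11 weeks for Dihydrorotenone replicate 1. Since nothing ties a replicate to a separate animal, p-values measure the spread between these libraries, which may be technical.

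Most proteins of the mitochondrial matrix are made in the cytosol and threaded in unfolded. Hspa9 (mortalin, the matrix HSP70) pulls them through the inner membrane, and the Hspd1 and Hspe1 chamber (HSP60 with its HSP10 lid) folds them. Lonp1 and the ClpXP protease, whose proteolytic subunit is Clpp, degrade damaged matrix proteins. Chchd10 and Chchd2 are paralogous intermembrane-space proteins with links to cristae structure and respiration. Gdf15 and Fgf21 are hormone-like proteins that cells secrete under mitochondrial stress, hence the name mitokines, and the transcription factors Atf4, Atf5 and Ddit3 (CHOP) are the best known regulators of these stress genes. Antimycin A blocks respiratory complex III, Dihydrorotenone blocks complex I, diphenyleneiodonium inhibits flavoenzymes, berberine is a plant alkaloid, cardamonin is a plant chalcone, clofilium is an antiarrhythmic potassium channel blocker, AEG 3482 is known as an inhibitor of JNK signalling, and podofilox (podophyllotoxin) binds tubulin.

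The start sites of 7 members were matched to RefSeq windows of the GRCm38.p6 assembly that run from 250 bases before the start to 50 bases after it. In all, 3 motifs were searched on both strands: the C/EBP-ATF response element (CARE, TGATGNAA) bound by Atf4 and Ddit3 dimers, the antioxidant response element (ARE, TGACNNNGC) and the heat shock element (HSE, the blocks GAA, TTC and GAA with NN between them). Among all 32817 windows the CARE letters occurred in 3.97%, the ARE letters in 12.4% and the HSE letters in 0.603%. The windows of Chchd10 and Fgf21 held CARE matches, the shared Hspd1 and Hspe1 region held a pair of overlapping HSE matches, one on each strand, and Lonp1 held ARE matches. A match is a string of letters and not evidence of binding. The stretches that hold the matches are printed here, with the matched letters in capitals. Each is 5′ to 3′ on the strand of the gene named.
Chchd10, chr10:75933010-75933129, plus strand, 120 bases before the start: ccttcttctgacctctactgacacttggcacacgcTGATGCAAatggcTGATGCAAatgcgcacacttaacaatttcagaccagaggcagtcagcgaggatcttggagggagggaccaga
Fgf21, chr7:45615491-45615640, minus strand, 150 bases before the start: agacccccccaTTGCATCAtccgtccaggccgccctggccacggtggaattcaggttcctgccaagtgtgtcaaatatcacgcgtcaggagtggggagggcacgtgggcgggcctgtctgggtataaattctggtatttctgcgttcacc
Hspe1, chr1:55088053-55088082, plus strand, inside the divergent Hspd1 region: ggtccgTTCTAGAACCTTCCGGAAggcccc
Lonp1, chr17:56626986-56627015, minus strand: agtctccctcTGACCACGCccactcactca
This Chchd10 window belongs to the start at 75933130; GENCODE also lists a start at 75935573, which no window covers. In Chchd10 the CARE letters came in tandem, from -85 to -78 and from -72 to -65 relative to the start, both on the gene's strand. In Fgf21 the single CARE match lay on the opposite strand, from -139 to -132. Lonp1 had a second ARE match from 8 to 16 bases past its start. No match to the 3 motifs was found in the windows of Gdf15 and Clpp.

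The libraries summed to 927024 to 937134 TPM (a length-corrected share of the library's transcripts) and held 12229 to 12700 genes at 1 TPM or more; the sequencing depth is unknown. The mean correlation of a library with the others of its group ran from 0.988 (DMSO replicate 6) to 0.992 (Antimycin A replicate 3). It was not set beside correlations between groups, so it may not flag an unusual library. The 8 fibroblast markers were expressed in every library, Krt5 and Myod1 were at 0 in all 30, and Epcam, Krt14, Cdh5 and Adipoq did not exceed 0.119 TPM. Low values of Ptprc (0.239 to 0.876 TPM), Pecam1 (0.188 to 0.804 TPM) and Des (0.0809 to 0.786 TPM) were present in every library. Sox10 reached 0.294 TPM, and Cd68 was at 11.5 TPM or more throughout. The summed fibroblast markers ranged from 9471 to 10929 TPM in DMSO and from 3743 to 4739.7 TPM in Cardamonin. The 11 markers of other cell types summed to 13.6 to 16.8 TPM in DMSO and to 26.9 to 42.8 TPM in Cardamonin, of which the macrophage and lysosome gene Cd68 held the largest share, at up to 41.4 TPM. The part of these differences in the Cardamonin results was not tested. In bulk RNA, fewer cells of a type and less RNA per cell cannot be told apart.

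Of the 9 members, 8 had at least 1 TPM in all 30 libraries and were tested, and Fgf21 reached 1 TPM in none. A gene is said to have risen or fallen where limma's moderated test on log2(TPM + 1) gave a Benjamini-Hochberg adjusted p below 0.05 over all 13644 tested genes. Because the members were chosen with earlier results of these data known, the shares of all genes are given beside them as a description. Cardamonin raised all 8 tested members, against 37.3% of all tested genes that rose and 33% that fell. Antimycin A raised 6 of the 7 members with a test, against 21.8% of all genes, and Podofilox raised 6 of 8, against 26.2%. Among the Antimycin A risers, Hspd1 and Hspe1 lost their calls under each of the 3 other scalings. BerberineA raised 5 of 8, against 12.6%, and Clofilium tosylate raised 4 of 7, against 10.9%. Under AEG 3482, 4 of 8 members rose and 1 fell, beside 41.3% and 26.8% of all genes. That count depended on the scaling: median-ratio scaling and quantile normalization lost the Chchd2 and Hspd1 rises and called Hspa9 lower. Diphenyleneiodonium Cl raised 3 of 8 against 14% of all genes, and Dihydrorotenone raised 3 of 8 against 4.95%. The Dihydrorotenone count fell to 1 without its replicate 1, without DMSO replicate 3 and without DMSO replicate 5. The median log2 fold change of the members with a test was 1.16 for Cardamonin, 0.38 for Podofilox, 0.30 for Antimycin A, 0.27 for Clofilium tosylate, 0.17 for BerberineA, 0.12 for AEG 3482, 0.09 for Dihydrorotenone and 0.06 for Diphenyleneiodonium Cl. The same median over all tested genes was between -0.03 and 0.10. All 8 comparisons use the same DMSO libraries, so they are not independent of each other.

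Chchd10 (ENSMUSG00000049422, GRCm38 chromosome 10, 75933130 to 75937747, plus strand) was lowest in DMSO and AEG 3482 and highest in Cardamonin. In DMSO its level was 5.87 (lowest), 7.17 (median) and 13.6 (highest) TPM, a mean of 8.30 ± 2.97 TPM (SD, n = 6). In Antimycin A the libraries held 64.8, 57.6 and 57.2 TPM, and in Clofilium tosylate 43.8, 57.0 and 43.4 TPM. These are the groups for which the gene was chosen, with log2 fold changes of 2.76 and 2.44 given as a description. Cardamonin, which played no part in the choice, gave 100.3, 85.2 and 95.3 TPM, all above the Antimycin A libraries. This was 11.3 times the DMSO mean, a log2 fold change of 3.40 ± 0.17 (SE; adjusted p = 1.24e-15).

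A group of intermediate levels followed. Diphenyleneiodonium Cl gave 26.8, 29.9 and 27.7 TPM (log2 fold change 1.70 ± 0.17, adjusted p = 2.77e-08), BerberineA 25.8, 24.5 and 28.9 TPM (1.61 ± 0.17, adjusted p = 1.23e-07) and Podofilox 23.7, 29.9 and 21.9 TPM (1.53 ± 0.17, adjusted p = 3.00e-08). The neighbours in this order did not differ beyond their spread, with limma adjusted p = 0.928 between the first pair and 0.79 between BerberineA and Podofilox. Dihydrorotenone gave 17.6, 20.5 and 13.8 TPM, 1.01 ± 0.17 above DMSO on the log2 scale (adjusted p = 1.92e-04), and lay below Podofilox (adjusted p = 0.0288). AEG 3482 gave 7.14, 7.51 and 6.56 TPM, within the DMSO range, with a log2 difference of -0.15 (95% interval -0.49 to 0.19, adjusted p = 0.431). In the 5 compounds that raised Chchd10 and played no part in its choice, every library lay above every DMSO library; across all tested genes that held for 32.9% with Cardamonin, 21.7% with Podofilox, 13.3% with Diphenyleneiodonium Cl, 10.5% with BerberineA and 4.99% with Dihydrorotenone.

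**Figure D1:**
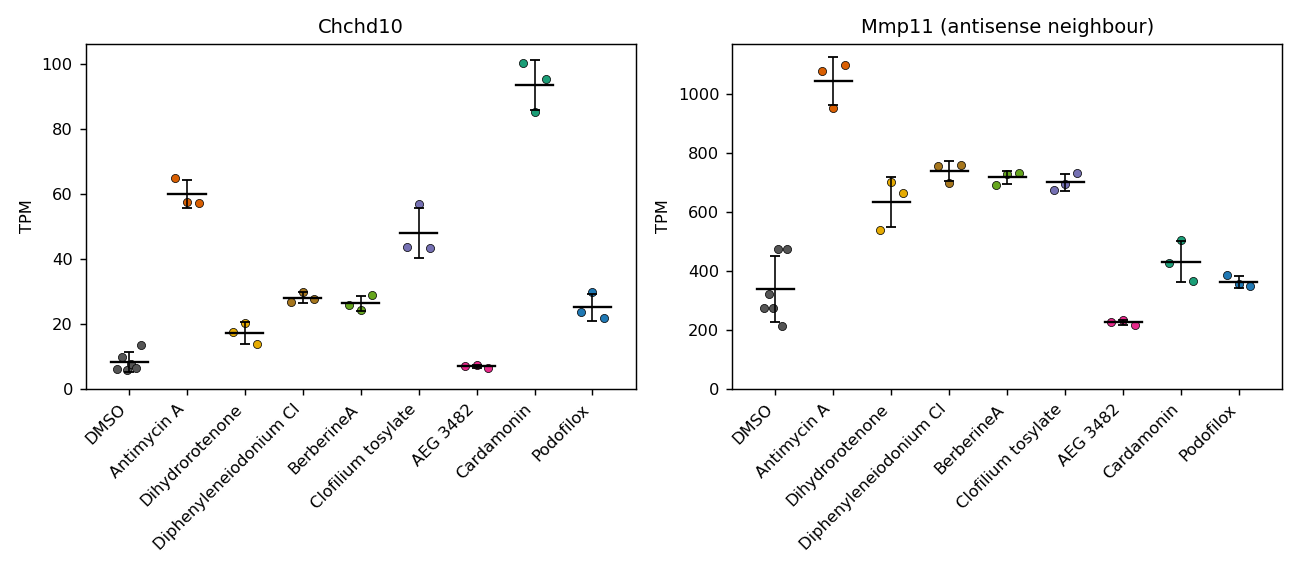
Chchd10 (left) and its antisense neighbour Mmp11 (right) in TPM, 1 point per library, with bars for the group mean and whiskers for 1 SD (n = 3 per compound, 6 for DMSO). Chchd10 was highest in Cardamonin (85.2 to 100.3 TPM), whereas Mmp11 was highest in Antimycin A (952 to 1100.4 TPM).

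Mmp11, which encodes the secreted protease stromelysin-3, lies on the opposite strand (75923222 to 75936496), and an exon of its transcript Mmp11-206 overlaps exons of Chchd10-201 and Chchd10-203 by 155 bases. Of the 31-base words in the Chchd10 transcripts, 8.24% also occur in Mmp11. Whether quantification used strand is not given in the sources used here, so reads of this stretch from either gene cannot be told apart, and their part in the Chchd10 values was not tested. Mmp11 had 339.8 ± 111 TPM (SD, n = 6) in DMSO and rose in 6 compounds, including Antimycin A at 1079.7, 952 and 1100.4 TPM (log2 fold change 1.68 ± 0.17, adjusted p = 1.19e-08). It fell in AEG 3482, at 226, 235 and 218 TPM, which overlapped DMSO (-0.52 ± 0.17, adjusted p = 0.00756). In Podofilox, where Chchd10 rose, Mmp11 held 387, 355 and 348 TPM, within the DMSO range (adjusted p = 0.469). In Cardamonin it held 427, 505 and 365 TPM, overlapping DMSO, with a log2 fold change of 0.40 ± 0.17 (adjusted p = 0.0365). The Chchd10 to Mmp11 ratio of the same library was 0.0250 ± 0.00571 (SD) in DMSO, 0.222 ± 0.0477 in Cardamonin and 0.0695 ± 0.0128 in Podofilox. It was also above DMSO in Diphenyleneiodonium Cl (0.0382 ± 0.00407) and BerberineA (0.0367 ± 0.00296), each of the 4 with p = 0.0238 by a two-sided exact permutation test, the smallest that 3 against 6 libraries allows, and 0.0476 after Benjamini-Hochberg adjustment over 14 ratio tests. In Dihydrorotenone the ratio was 0.0276 ± 0.00622 and its libraries overlapped the DMSO range of 0.0164 to 0.0305 (exact p = 0.571, adjusted p = 0.667). In AEG 3482 it was 0.0312 ± 0.000982 (exact p = 0.0714, adjusted p = 0.125). In Dihydrorotenone Chchd10 rose to 2.08 times and Mmp11 to 1.87 times its DMSO mean.

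Chchd2 (chromosome 5, 129881156 to 129887470, minus strand), the paralogue of Chchd10, was about 299 TPM in DMSO and moved little. Its DMSO libraries held 279 (lowest), 297 (median) and 329 (highest) TPM. Cardamonin gave 429, 406 and 461 TPM, a log2 fold change of 0.53 ± 0.05 (adjusted p = 2.85e-10) with no overlap. AEG 3482 gave 329, 352 and 340.2 TPM, which overlapped DMSO, at 0.19 ± 0.05 (adjusted p = 0.00131), a call that was lost under median-ratio scaling (adjusted p = 0.28) and quantile normalization (0.636). In Antimycin A and Clofilium tosylate Chchd2 had 308 and 311 TPM, with adjusted p = 0.512 and 0.465. Without DMSO replicate 6, Chchd2 was also called higher in BerberineA (adjusted p = 0.0365) and Dihydrorotenone (0.035). Over the 9 group means of log2(TPM + 1) the Pearson r of the paralogues was 0.43, and -0.37 without Cardamonin, as a description with no test. Of the 31-base words of Chchd2, 21% occur in other genes, mainly Zbed5 and pseudogenes, and these summed to at most 13.8 TPM.

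Hspd1 (chromosome 1, 55077835 to 55088243, minus strand) and Hspe1 (chromosome 1, 55088132 to 55091307, plus strand) start head to head and share the HSE matches printed above. Hspd1 had 111 (lowest), 114 (median) and 128 (highest) TPM in DMSO. Cardamonin gave 240.4, 231 and 254 TPM, 2.08 times the DMSO mean (log2 fold change 1.05 ± 0.05, adjusted p = 1.29e-16), and Podofilox gave 145, 142 and 149.8 TPM (0.33 ± 0.05, adjusted p = 1.90e-06). Every library of both compounds lay above DMSO. AEG 3482 gave 132, 129 and 141 TPM (0.21 ± 0.05, adjusted p = 2.97e-04), and this call was lost under median-ratio scaling (adjusted p = 0.0907) and quantile normalization (0.422). Antimycin A gave 125, 126 and 127 TPM, 0.12 ± 0.05 with an adjusted p of 0.0462, a call lost under the 3 other scalings (adjusted p from 0.163 to 0.241) and without any 1 of the Antimycin A replicates or of DMSO replicates 1, 2, 3, 5 and 6 (from 0.058 to 0.126). Hspd1 was not called in the other 4 compounds, where group means ran from 109 TPM (Dihydrorotenone) to 121 TPM (Clofilium tosylate).

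Hspe1 had 185 (lowest), 192 (median) and 204 (highest) TPM in DMSO. It rose in Cardamonin to 278, 269 and 307 TPM (0.55 ± 0.06, adjusted p = 1.37e-08). Under AEG 3482 it fell to 160.3, 165 and 166 TPM (-0.24 ± 0.06, adjusted p = 0.00114), wholly below DMSO, where 22.8% of all tested genes lay; it was the 1 member that fell in any compound. In Antimycin A it held 209.6, 229.7 and 218 TPM (0.17 ± 0.06, adjusted p = 0.0281), a call lost under the 3 other scalings (adjusted p from 0.0926 to 0.144) and without Antimycin A replicate 2, Antimycin A replicate 3 or DMSO replicate 3 (from 0.053 to 0.144). In Podofilox, where Hspd1 rose, Hspe1 had 207, 209.7 and 201 TPM with an adjusted p of 0.266.

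The balance of lid and chamber transcripts shifted in 3 compounds. The Hspe1 to Hspd1 ratio was 1.68 ± 0.0975 in DMSO (SD, range 1.52 to 1.81), 1.18 ± 0.0273 in Cardamonin, 1.22 ± 0.0540 in AEG 3482 and 1.42 ± 0.0660 in Podofilox. The log2 differences were -0.51, -0.45 and -0.24, each with all 3 libraries below every DMSO library (exact permutation p = 0.0238, adjusted 0.0476 over the 14 ratio tests). Those 14 tests pool this ratio with that of Chchd10 to Mmp11, so the adjusted p also depends on the results of the other ratio. In the other 5 compounds the mean ratio was 1.67 to 1.88, with exact p from 0.0952 to 0.976. Because both values come from 1 library, the ratio does not depend on the scaling between libraries. Shared sequence touches both genes: 53.1% of the 31-base words of Hspd1 occur in other genes, mainly the pseudogene Hspd1-ps3, listed at no more than 0.228 TPM, and 30.5% of those of Hspe1, including 5.68% in Hspd1 itself. How the authors' quantification divided such reads was not tested.

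**Figure D2:**
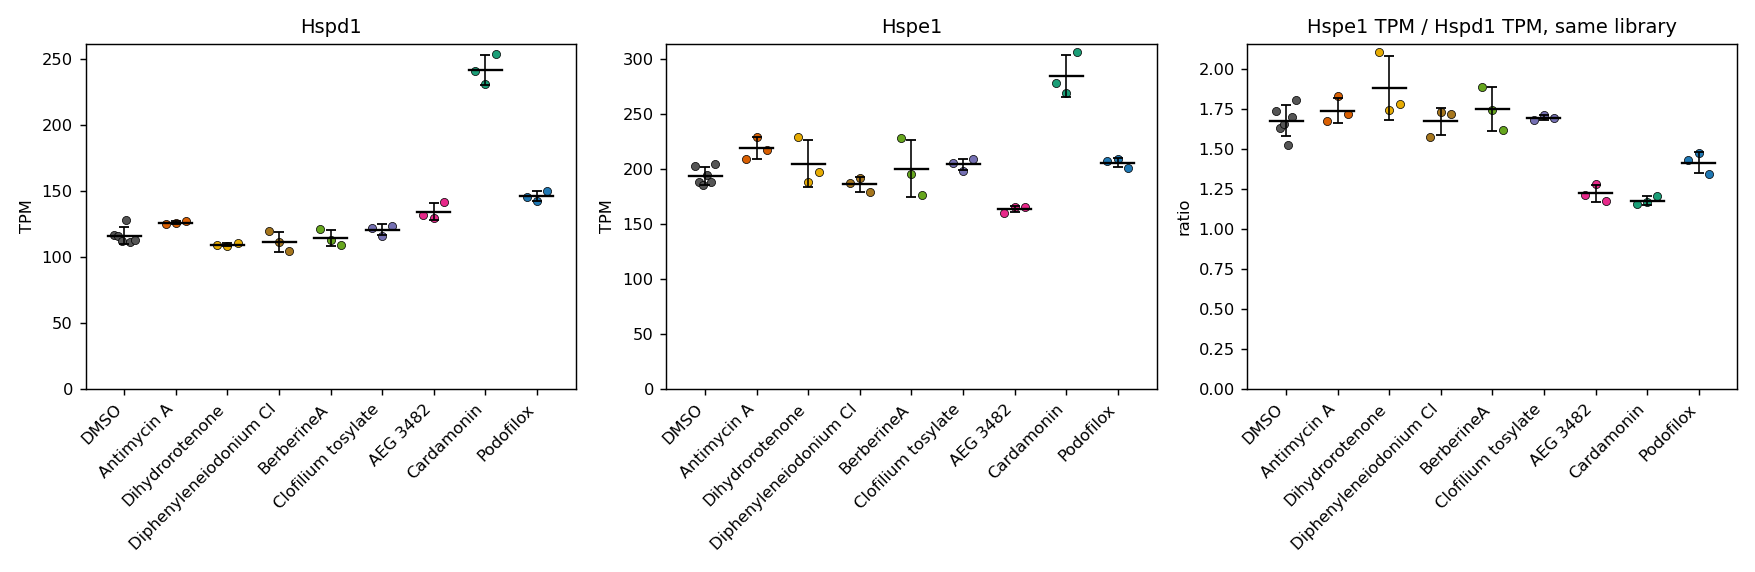
Hspd1 (left) and Hspe1 (middle) in TPM and their ratio within each library (right), 1 point per library, with group means and whiskers of 1 SD (n = 3 per compound, 6 for DMSO). In Cardamonin both genes are above DMSO and the ratio is below it (1.16 to 1.21), and in AEG 3482 Hspe1 lies below DMSO (ratio 1.17 to 1.28).

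Hspa9 (chromosome 18, minus strand) rose in 5 of the 8 compounds. DMSO libraries held 145 (lowest), 145 (median) and 161 (highest) TPM. Cardamonin gave 360.5, 354 and 381 TPM (1.29 ± 0.03, adjusted p = 6.53e-21), Podofilox 252, 253 and 263 TPM (0.78 ± 0.03, adjusted p = 2.36e-15), Antimycin A 224, 221 and 230.4 TPM (0.60 ± 0.03, adjusted p = 8.30e-13) and Clofilium tosylate 214, 213 and 214 TPM (0.52 ± 0.03, adjusted p = 6.17e-11). None of these 12 libraries overlapped DMSO; of all tested genes 18% lay wholly above DMSO with Antimycin A and 9.56% with Clofilium tosylate. In the order of levels Cardamonin lay above Podofilox (adjusted p = 3.30e-11) and Podofilox above Antimycin A (5.93e-04), whereas Antimycin A and Clofilium tosylate did not differ beyond their spread (0.307). BerberineA, at 169, 166 and 166 TPM, rose by a log2 fold change of 0.17 ± 0.03 (adjusted p = 7.13e-04). Hspa9 was not called in Diphenyleneiodonium Cl (153 TPM), Dihydrorotenone (143 TPM) or AEG 3482 (144 TPM), but under the 3 other scalings it was called lower in AEG 3482, with log2 fold changes from -0.21 to -0.11.

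Lonp1 (chromosome 17, 56614297 to 56626887, minus strand) had 40.6 (lowest), 43.5 (median) and 44.1 (highest) TPM in DMSO. It rose to 101, 96.4 and 114 TPM in Cardamonin, 2.43 times the DMSO mean (log2 fold change 1.26 ± 0.05, adjusted p = 5.86e-17). Clofilium tosylate (56.6, 62.5 and 55.6 TPM), Podofilox (58.1, 57.3 and 58.4 TPM), Antimycin A (57.4, 52.7 and 58.4 TPM) and AEG 3482 (51.5, 56.7 and 50.5 TPM) formed a middle group, with log2 fold changes of 0.44, 0.43, 0.39 and 0.30 and adjusted p from 1.14e-06 to 1.93e-05. Neighbours within this group did not differ beyond their spread (adjusted p from 0.232 to 0.961). BerberineA had 48.1 ± 2.71 TPM (SD, n = 3) and a log2 fold change of 0.17 ± 0.05 (adjusted p = 0.0246), a call lost without BerberineA replicate 2 (adjusted p = 0.0582), BerberineA replicate 3 (0.179), DMSO replicate 1 (0.0507) or DMSO replicate 2 (0.0501) and under the scaling without the 20 most abundant genes (0.0528). Lonp1 was not called in Dihydrorotenone or Diphenyleneiodonium Cl.

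Clpp (chromosome 17, 56990305 to 56996188, plus strand) moved within a narrow span. DMSO libraries held 34.5 (lowest), 39.8 (median) and 44.7 (highest) TPM. In Cardamonin the values were 57.8, 57.7 and 61.8 TPM (0.58 ± 0.06, adjusted p = 6.31e-09), above every DMSO library. In Antimycin A they were 47.6, 47.7 and 49.9 TPM (0.30 ± 0.06, adjusted p = 4.01e-04), likewise above. Clpp also rose in Clofilium tosylate, BerberineA, Podofilox, Diphenyleneiodonium Cl and Dihydrorotenone, with means of 44.9 to 47.2 TPM and log2 fold changes of 0.20 to 0.27, and in each of these 5 compounds at least 1 library overlapped the DMSO range. Without Diphenyleneiodonium Cl replicate 3 its call there was lost (adjusted p = 0.119), and the Dihydrorotenone call was lost without either of Dihydrorotenone replicates 1 and 3 or any of DMSO replicates 1, 3 and 5 (adjusted p from 0.0536 to 0.161). With each compound and DMSO fitted alone, the calls in Clofilium tosylate (0.0508), BerberineA (0.0586), Diphenyleneiodonium Cl (0.095) and Dihydrorotenone (0.173, all adjusted p) were lost. AEG 3482 gave 40.2, 41.5 and 39.9 TPM, with a log2 difference of 0.05 (95% interval -0.08 to 0.18). Lonp1 and Clpp share no 31-base word with another gene.

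**Figure D3:**
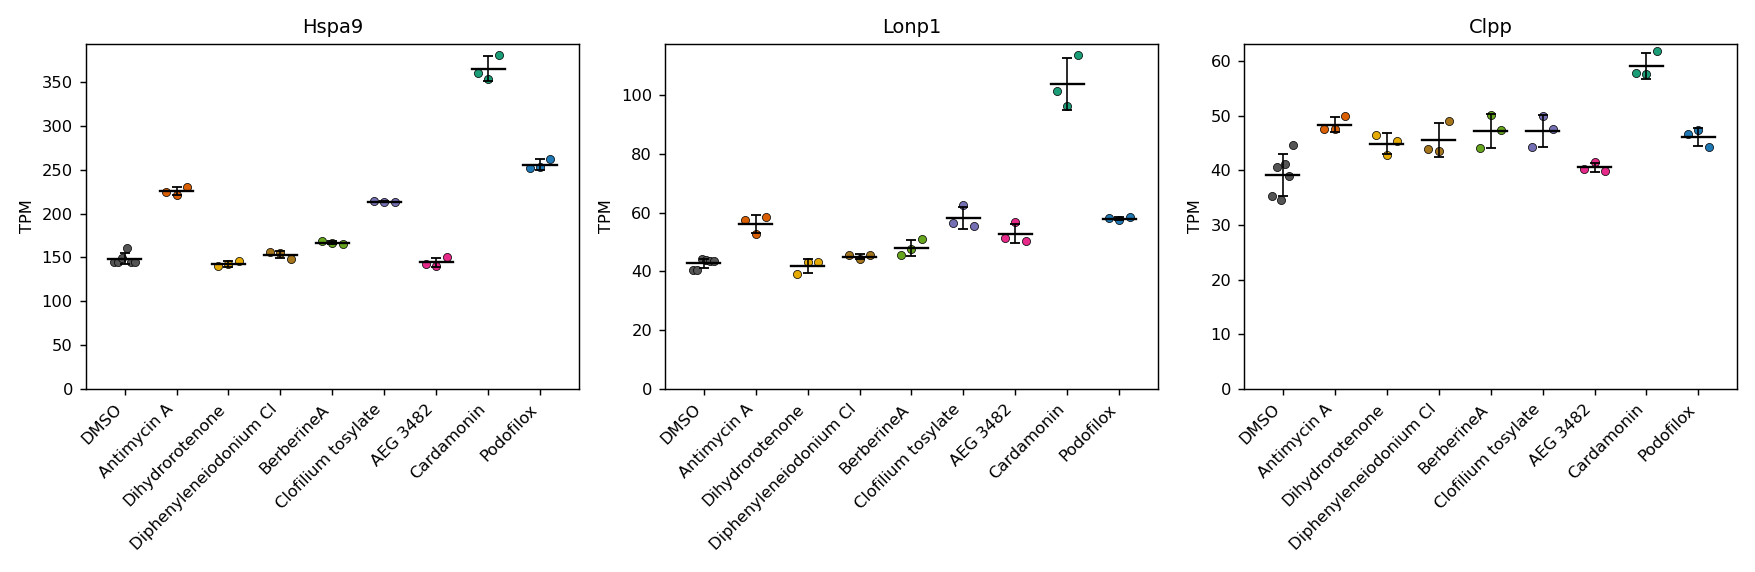
Hspa9, Lonp1 and Clpp in TPM, 1 point per library, with group means and whiskers of 1 SD (n = 3 per compound, 6 for DMSO). Hspa9 is raised in Antimycin A (221 to 230.4 TPM) and Clofilium tosylate (213 to 214 TPM) and not called in Dihydrorotenone (139.7 to 146 TPM), and each of the 3 genes is highest in Cardamonin.

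Gdf15 (chromosome 8, 70629393 to 70632456, minus strand), a stress-induced cytokine of the TGF-beta family that signals through the hindbrain receptor Gfral, rose in all 8 compounds and had the largest fold change of any member, in Cardamonin. Its DMSO libraries held 3.87 (lowest), 5.10 (median) and 5.92 (highest) TPM. Cardamonin gave 186, 171 and 182 TPM, 35.5 times the DMSO mean (log2 fold change 4.91 ± 0.09, adjusted p = 9.58e-24). AEG 3482 gave 55.7, 65.0 and 59.1 TPM, 11.8 times the DMSO mean (3.34 ± 0.09, adjusted p = 1.83e-20). This is the compound in which Chchd10, Hspa9 and Clpp were not called. Antimycin A gave 21.3, 21.7 and 20.5 TPM (1.88 ± 0.09, adjusted p = 6.04e-14), Clofilium tosylate 14.1, 15.9 and 14.4 TPM (1.39 ± 0.09, adjusted p = 6.17e-11) and Diphenyleneiodonium Cl 13.0, 14.4 and 13.3 TPM (1.27 ± 0.09, adjusted p = 1.97e-10). Clofilium tosylate and Diphenyleneiodonium Cl did not differ beyond their spread (adjusted p = 0.649), and Antimycin A lay above both (adjusted p = 0.00611 and 5.43e-04). BerberineA (7.84, 8.97 and 7.60 TPM) and Podofilox (7.01, 8.25 and 8.57 TPM) were close to each other, with log2 fold changes of 0.60 and 0.57 and every library above DMSO. Dihydrorotenone gave 6.63, 7.39 and 5.34 TPM, which overlapped DMSO; its log2 fold change of 0.30 ± 0.09 (adjusted p = 0.0274) was no longer called without Dihydrorotenone replicate 1 (adjusted p = 0.112), Dihydrorotenone replicate 2 (0.209), DMSO replicate 3 (0.052) or DMSO replicate 5 (0.0576).

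Fgf21 (chromosome 7, 45613886 to 45615490, minus strand), a secreted fibroblast growth factor that acts on distant tissues through Klb, stayed below 1 TPM in every library, so no test was made after the low-value filter. DMSO libraries held 0.0529 (lowest), 0.107 (median) and 0.436 (highest) TPM. Cardamonin gave 0.454, 0.642 and 0.869 TPM and Antimycin A 0.748, 0.408 and 0.590 TPM. The lowest of these 6 libraries exceeded 5 of the 6 DMSO libraries. Antimycin A and the other 6 compounds overlapped DMSO, and Cardamonin lay above it. Those 6 had means from 0.0779 to 0.447 TPM. Without the filter, limma gave Fgf21 a log2(TPM + 1) difference of 0.49 in Cardamonin (adjusted p = 0.00254) and 0.43 in Antimycin A (0.0168) and made no call in the other 6, where adjusted p ran from 0.0880 to 1. With an unknown depth at such levels, no fold change is given.

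**Figure D4:**
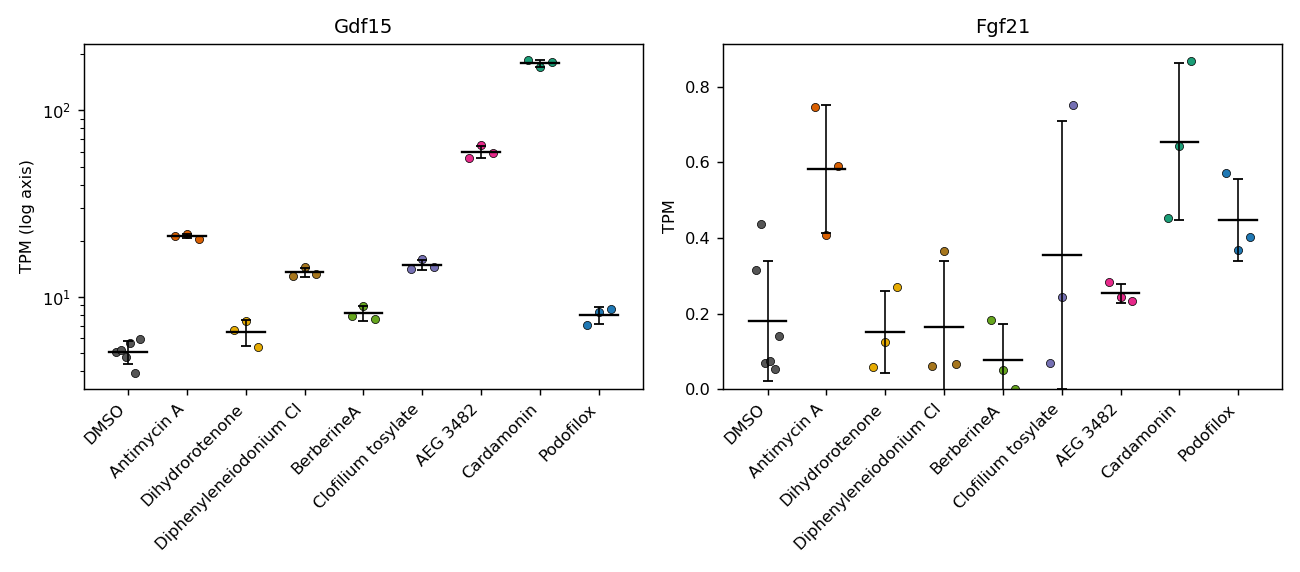
Gdf15 on a log axis (left) and Fgf21 on a linear axis (right) in TPM, 1 point per library, with group means and whiskers of 1 SD, those of Fgf21 ending at 0 (n = 3 per compound, 6 for DMSO). Gdf15 spans 3.87 TPM in 1 DMSO library to 186 TPM in Cardamonin, whereas Fgf21 stays below 1 TPM throughout.

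Antimycin A and Dihydrorotenone block different complexes of the same respiratory chain, and the members told these cultures apart in the direct contrast, in which 11.6% of all tested genes were higher in Antimycin A and 3.91% lower. Of the 7 members with a test, 4 were higher in Antimycin A and none was lower. Gdf15 differed by 1.58 ± 0.10 on the log2 scale (adjusted p = 1.41e-10), Hspa9 by 0.66 ± 0.04 (2.76e-11), Lonp1 by 0.41 ± 0.06 (3.08e-05) and Hspd1 by 0.20 ± 0.05 (0.00976). Chchd10 differed by 1.75 ± 0.19, given as a description. Chchd2, Hspe1 and Clpp were not called, with adjusted p = 0.474, 0.403 and 0.367. As the doses are not known here, the contrast compares these cultures and not the 2 inhibitors at matched strength.

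The wider pathway was described by 75 other genes of proteases, chaperone cofactors, protein import, the CHCHD family and cristae, stress regulators and mitokine receptors, of which 72 were tested; Gfral, Ret and Klb did not pass the low-value filter. This list too was chosen with earlier results of these data known, so its shares beside those of all genes are a description. In Antimycin A 28 of these rose and 1 fell, 38.9% and 1.39% of the list, beside 21.8% and 15.5% of all genes. In Cardamonin 49 rose and 7 fell (68.1% and 9.72%), beside 37.3% and 33%, and in Clofilium tosylate 19 rose and 4 fell (26.4% and 5.56%), beside 10.9% and 12.5%. AEG 3482 had 39 risers and 16 fallers (54.2% and 22.2%), beside 41.3% and 26.8% of all genes. Podofilox had 23 and 10 (31.9% and 13.9%), beside 26.2% and 20%. BerberineA had 14 and 3 (19.4% and 4.17%), beside 12.6% and 9.16%. Diphenyleneiodonium Cl had 12 and 4 (16.7% and 5.56%), beside 14% and 11.7%. Dihydrorotenone had 7 and 3 (9.72% and 4.17%), beside 4.95% and 9.43%. Leaving out Dihydrorotenone replicate 1 took its count of called genes from 10 to 5, and leaving out BerberineA replicate 3 took that of BerberineA from 17 to 10. With AEG 3482, 15 of 22 import genes rose and 3 fell, 11 of 18 proteases rose and 3 fell, and 3 of 12 genes of the CHCHD family and cristae rose and 5 fell. In Antimycin A, 6 of those 12 rose and none fell. The largest fall in AEG 3482 was that of Dnajc19, an import motor cofactor, from 34.1 ± 1.95 to 19.4 ± 1.29 TPM (SD, n = 6 and 3; limma adjusted p = 1.41e-09). The mitochondrial disaggregase Clpb led the risers of Diphenyleneiodonium Cl (log2 fold change 0.57 ± 0.09, adjusted p = 2.62e-05) and the iron-sulphur cluster co-chaperone Hscb those of Dihydrorotenone (0.41 ± 0.07, 2.32e-04). Tomm5, a small subunit of the outer-membrane import pore, had the largest fall in Diphenyleneiodonium Cl (-0.27 ± 0.06, 0.00214).

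**Figure D5:**
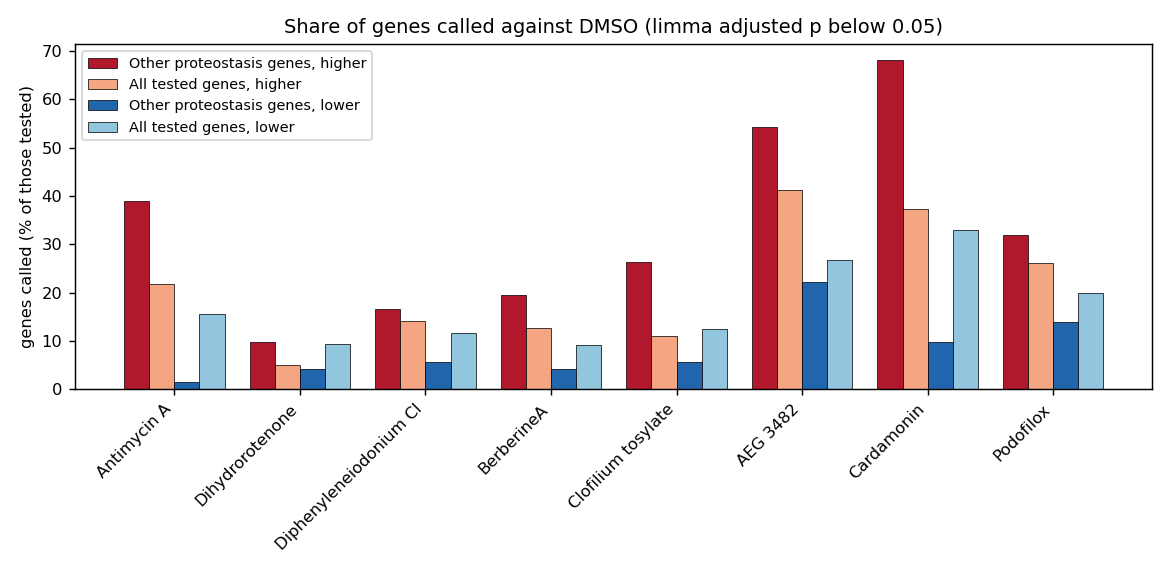
Share of the 72 tested proteostasis genes outside the members that rose (red) or fell (blue) against DMSO in each compound, beside the share of all 13644 tested genes (paler bars), in percent. In Antimycin A 38.9% of the listed genes rose and 1.39% fell, beside 21.8% and 15.5% of all genes. The list was chosen with earlier results of these data known.

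The 3 stress regulators moved in different sets of compounds. Atf4, the effector of the integrated stress response, had 134 ± 6.52 TPM (SD, n = 6) in DMSO and rose to 299 TPM with Podofilox, 288 with Cardamonin, 212 with Antimycin A, 188 with AEG 3482 and 183 with Clofilium tosylate (adjusted p from 1.19e-17 to 2.92e-08). Atf5 had 82.3 ± 2.83 TPM (SD, n = 6) in DMSO and rose in the same 5 compounds, to 477 ± 39.8 TPM (SD, n = 3) in Cardamonin and to 192 to 214 TPM in the others, and it fell in Dihydrorotenone to 71.5 TPM (log2 fold change -0.20 ± 0.05, adjusted p = 0.00752). Ddit3 rose in those 5 and also in Diphenyleneiodonium Cl (123 TPM) and BerberineA (121 TPM), from 84.2 ± 6.52 TPM (SD, n = 6) in DMSO. It was highest in Cardamonin (229.8 TPM) and Antimycin A (206 TPM) and lowest of its risers in AEG 3482 (101 TPM, overlapping DMSO, adjusted p = 0.00204). In Dihydrorotenone Ddit3 was not called (0.18 ± 0.07, adjusted p = 0.101). Among the eIF2-alpha kinases, which act upstream of Atf4, Eif2ak3 (PERK) had the largest fall of the list in Antimycin A (-0.45 ± 0.06), BerberineA (-0.42 ± 0.06), Clofilium tosylate (-0.38 ± 0.06) and Dihydrorotenone (-0.30 ± 0.06), and Eif2ak2 (PKR) in Cardamonin (-0.84 ± 0.10) and Podofilox (-0.65 ± 0.10). The kinases were not uniformly lower. Their other called changes, named after the values were seen, were as follows. Eif2ak2 rose in Diphenyleneiodonium Cl (0.51 ± 0.10), Antimycin A (0.49 ± 0.10) and BerberineA (0.32 ± 0.10), and Eif2ak3 rose in Podofilox (0.45 ± 0.06) and AEG 3482 (0.20 ± 0.06). Eif2ak3 also fell in Diphenyleneiodonium Cl (-0.24 ± 0.06). Eif2ak1 (HRI) rose in AEG 3482 (0.60 ± 0.04) and Cardamonin (0.24 ± 0.04), and Eif2ak4 (GCN2) fell in the same compounds (-0.22 ± 0.08 and -0.30 ± 0.08).

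As a description over the 9 group means of log2(TPM + 1), which share the TPM scaling of their libraries, the members were set beside the regulators. Chchd10 had a Pearson r of 0.93 with Ddit3, 0.57 with Atf5 and 0.48 with Atf4, and r with Ddit3 was 0.90 without Cardamonin. These means include Antimycin A and Clofilium tosylate, for which Chchd10 was chosen; over the 7 groups without them r was 0.92 with Ddit3, 0.53 with Atf5 and 0.46 with Atf4. Lonp1 had r = 0.93 with Atf5 (0.96 without Cardamonin) and 0.80 with each of Atf4 and Ddit3. For Gdf15 and Hspe1 the highest r with a regulator was lower. Gdf15 had r = 0.80 with Atf5, 0.57 with Atf4 and 0.57 with Ddit3, and 0.58, 0.30 and 0.26 without Cardamonin. Hspe1 had r = 0.73 with Ddit3, 0.59 with Atf5 and 0.53 with Atf4, and 0.57, 0.05 and 0.20 without Cardamonin. Hspa9 had r = 0.88 with Ddit3, 0.87 with Atf5 and 0.86 with Atf4. Hspd1 had r = 0.87 with Atf5, 0.79 with Atf4 and 0.62 with Ddit3, and 0.85, 0.94 and 0.33 without Cardamonin. Clpp had r = 0.85 with Ddit3, 0.65 with Atf5 and 0.54 with Atf4. Chchd2 had r = 0.68 with Atf5, 0.47 with Atf4 and 0.45 with Ddit3. Hspd1 and Hspe1 had r = 0.75, which became -0.10 without Cardamonin. Among the 9624 tested genes with a mean of at least 5 TPM, the patterns most like that of Chchd10 were those of the replication licensing factor Cdt1 (r = 0.987), the lipoprotein receptor Vldlr (0.980) and the haem synthesis enzyme Alad (0.971). That search also used the groups for which Chchd10 was chosen. Over the other 7 groups the same genes had r = 0.992, 0.977 and 0.961. As they were picked by r over all 9 groups, these values do not check the search. Those most like Hspa9 were the matrix co-chaperone Dnaja3 (0.989) and the cytosolic tRNA synthetases Sars (0.988) and Lars (0.985). For Gdf15 they were Gga1 (0.990), Zdhhc3 (0.989) and Plxna1 (0.988). For Lonp1 they were Fam206a (0.983), C1qbp (0.978) and Trmt6 (0.975), for Hspd1 Pum3 (0.993), Tmem14c (0.993) and Hgh1 (0.991), and for Hspe1 Utp14a (0.973), Ap5z1 (0.968) and Pyroxd1 (0.967). Clpp was most like Ctnnb1 (0.974), Gla (0.972) and Atp6v1c1 (0.966), and Chchd2 most like Zfp213 (0.976), Gtf2f2 (0.971) and Vps29 (0.967).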

How the data were processed

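RNA was isolated with RNAzol and ribosomal RNA was removed, per the labels' protocols. The authors quantified transcripts with kallisto 0.43.1 and summed them per gene with tximport, per the series text and the submitters' processing notes, which also name FastQC and the build mm10; the transcript index and strand setting are not given in the sources used here. The deposited table holds TPM from the authors for 29861 genes and 30 libraries, so depth is unknown and no count test was run. The labels name 6 DMSO libraries, the series text 5; all 6 were used. Library numbers run consecutively within groups, so any batch and the compound cannot be told apart.

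Genes at 1 TPM or more in at least 3 libraries (13644) were tested on log2(TPM + 1) with limma 3.58.1 (R 4.3.3), intensity trend, 1 mean per group over all libraries, Benjamini-Hochberg adjustment within each comparison and a threshold of 0.05. Symbols came from GENCODE M21. The same fit gave all 36 pairwise contrasts. Ratios were compared with two-sided exact permutation tests, adjusted over both ratios together. On data simulated for Antimycin A against DMSO over 13644 genes, the fit recovered 32% of changes of 0.25, 72% of 0.5 and 94% of 1 on the log2 scale, with 9 false calls. The simulation changed only 50 genes at each size, whereas 37.3% of genes were called in the real comparison. Its recovery rates therefore do not give those of the real comparison. The members and the gene lists were chosen with earlier results of these data known. Named genes are the members, the largest riser and faller of the pathway lists in each compound, Atf4, Atf5 and Ddit3, genes that share 31-base words with a member, and the 3 genes most like each member. Same-numbered replicates did not deviate together (correlations of -0.05 to 0.12), so no pairing was used. Alternatives were another pseudocount, 2 other filters, 3 scalings, no trend, a replicate block, 2 groups alone, an exact test, each library left out, and, added after the data were seen, members summed with pseudogenes that share their 31-base words and the Chchd10 correlations without Antimycin A and Clofilium tosylate.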

Additional observations from a re-analysis of the deposited data

Results flagged for a closer look

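In DMSO replicate 4 Hspd1 was 128 TPM, with the next highest DMSO library at 117 TPM, and Hspa9 was 161 TPM, with the next at 149.7 TPM. In both genes this library stood farther from the other 5 than Dixon's criterion at the 95% level allows. Of the 9 members tested for such a gap in DMSO, 2 passed, and chance passes about 1 in 20 groups. Without DMSO replicate 4 no member's call was lost.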

How the results depend on the processing

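No member changed direction while called, under any alternative run. With each compound and DMSO fitted alone, the members called were 1 instead of 3 in Dihydrorotenone and 3 instead of 5 in BerberineA, and the pathway genes called were 6 instead of 10 in Dihydrorotenone, 8 instead of 17 in BerberineA and 15 instead of 23 in Clofilium tosylate; these fits have fewer libraries. With 1 library left out, members called ranged from 1 to 4 in Dihydrorotenone, 4 to 6 in Antimycin A and BerberineA and 2 to 3 in Diphenyleneiodonium Cl, and stayed at 8 in Cardamonin, 6 in Podofilox, 5 in AEG 3482, 4 in Clofilium tosylate and 4 in the contrast of Antimycin A and Dihydrorotenone. Pathway genes called ranged from 5 (without Dihydrorotenone replicate 1) to 10 in Dihydrorotenone and from 10 (without BerberineA replicate 3) to 18 in BerberineA, against main counts of 10 and 17, and by less than 1.5 times elsewhere: 23 to 32 in Antimycin A, 12 to 18 in Diphenyleneiodonium Cl, 50 to 57 in Cardamonin, 17 to 24 in Clofilium tosylate, 49 to 55 in AEG 3482 and 28 to 33 in Podofilox. With the replicate number as a block, 5 members instead of 6 were called in Antimycin A, as Hspe1 was lost (adjusted p = 0.0511), and no other member call changed; 2 of the 24 correlations between same-numbered libraries exceeded 0.1. The median log2 fold change of all genes in AEG 3482 was 0.10 as deposited and 0.003 after median-ratio scaling. In AEG 3482 the scaling changed member calls that leaving out 1 library did not. There Chchd2 and Hspd1 were lost under median-ratio scaling and quantile normalization, and Hspa9 was called lower under all 3 other scalings. In Antimycin A, Hspd1 and Hspe1 were both lost under each of the 3, and both were also lost when certain single libraries were left out.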

Other observations

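Among the 75 other proteostasis genes, 2 were singled out after their values were seen. Afg3l2, the subunit of the inner-membrane m-AAA protease, rose in the compounds other than Dihydrorotenone, where it was 41.6 TPM against 38.1 ± 2.40 TPM in DMSO (SD, n = 6; limma adjusted p = 0.146). It reached 88.5 ± 5.42 TPM in Cardamonin (log2 fold change 1.20 ± 0.06, adjusted p = 4.01e-16), 72.5 TPM in Podofilox (0.91 ± 0.06, 8.35e-13) and 62.1 TPM in Antimycin A (0.69 ± 0.06, 3.13e-10). Its rise in AEG 3482 was 0.14 ± 0.06 (adjusted p = 0.0317), in a comparison where the median of all genes was 0.10. Clpx, the unfoldase that feeds substrates to Clpp, was called in 3 compounds and fell in each, Cardamonin (-0.30 ± 0.06, 3.96e-05), Podofilox (-0.28 ± 0.06, 1.71e-04) and Clofilium tosylate (-0.20 ± 0.06, 0.0107), compounds in which Clpp rose.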
